A study of Mus musculus with 83 samples.

Results

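The T cell and intraepithelial lymphocyte genes described here were 10 named rows of a colon count table, Cd3e, Cd3g, Cd4, Cd8a, Cd8b1, Trdc, Itgae, Gzma, Gzmb and Foxp3, out of 37764 genes in all. They were picked by name, and all 10 passed the filter on low counts. Bulk RNA-seq counts came from the proximal colon of 83 male mice of the strain C57BL/6J/Ukj that received no treatment but aging, killed at an age of 3, 9, 15, 24 or 28 months (n = 16, 16, 16, 17 and 18 mice). Each mouse gave 1 library from a rinsed piece of whole tissue, and the libraries were made in 3 batches that each held mice of every age. Between 23026370 and 75838290 read pairs per mouse fell on genes.

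T cells recognise peptides or lipids through a receptor that signals through the CD3 chains, and the coreceptors CD4 and CD8 divide them into helper or regulatory cells and killer cells. In the intestine, many T cells do not sit in the connective tissue but between the epithelial cells. These intraepithelial lymphocytes hold on to E-cadherin of the epithelium through the integrin chain CD103, which Itgae encodes, are often of the gamma delta type, and carry granzymes, proteases that enter target cells. Regulatory T cells, which are set by the transcription factor Foxp3, restrain responses to food and bacteria and are abundant in the colon.

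All 10 genes had counts in each of the 83 mice, from 11 read pairs for Foxp3 to 1614 for Cd8a. Per length, in TPM (read counts divided by exon length and scaled to the same total in each mouse), the granzymes stood highest, with a median over all mice of 30.4 for Gzma and 21.4 for Gzmb, and Gzma exceeded Gzmb in 83 of 83 mice. Cd8a followed at a median TPM of 7.35, Cd4 at 5.52 and Itgae at 4.31. Next to each other in this order, Cd8a lay above Cd4 in 62 of 83 mice and Cd4 above Itgae in 68, gaps of 0.41 and 0.35 on the log2 scale beside an SD over mice of 0.42 for Cd8a and 0.37 for Cd4. The CD3 chains were close to each other, at a median TPM of 3.41 for Cd3g and 3.04 for Cd3e. The CD8 beta chain Cd8b1 had a median TPM of 2.57, the gamma delta receptor's constant segment Trdc 1.08 and Foxp3 0.785. Cd3g lay above Cd3e in 70 of 83 mice, a gap of 0.16 on the log2 scale. Cd3e lay above Cd8b1 in 54, a gap of 0.24 beside an SD of 0.60 over mice for Cd8b1. The order of such neighbours was not tested and is not read as fixed. Libraries were selected for polyadenylated RNA and TPM rests on merged exon lengths, so these levels rank transcripts and not cells.

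On GRCm38, Cd3e (9:44998740-45009627) and Cd3g (9:44969572-44980431) lie on the minus strand of chromosome 9, with Cd3d of the same complex between them on the plus strand. Cd8a (6:71373427-71379173) and Cd8b1 (6:71322788-71337494) lie on the plus strand of chromosome 6, which also holds Cd4 (6:124864692-124888221, minus strand). Trdc (14:54142851-54148868, plus strand) is a receptor constant segment. Gzmb (14:56258838-56262260) and Gzma (13:113093825-113100981) are on minus strands, Itgae (11:73090583-73147446) and Foxp3 (X:7573644-7595245) on plus strands. The values count reads over all exons of a gene. Foxp3 is the 1 member with exons that overlap another gene on the same strand, the noncoding Flicr, and the reads counted there are uncertain.

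Between 3 and 28 months, the widest age span, genes of CD8 T cells (Cd8a and Cd8b1), CD103 (Itgae), granzyme A (Gzma) and Foxp3 rose and the gamma delta gene Trdc fell, while the CD3 chains had fold changes close to 1. With edgeR's quasi-likelihood test and a threshold of 0.1 on the Benjamini-Hochberg adjusted p over all 18325 tested genes, 6 of the 10 members were called, 5 higher and 1 lower at 28 months. The call of Cd8a rests on a single 28-month mouse, without which its log2 fold change went from 0.37 to 0.23 (edgeR, adjusted p = 0.118) and that of Cd8b1 from 0.66 to 0.39 (edgeR, adjusted p = 0.0667). Of all tested genes 49.3% were called in this comparison, 23.4% higher and 25.9% lower, so a share of 6 in 10 is near the background. The median log2 fold change was 0.29 over the 10 members and -0.01 over all tested genes. The values of the age groups overlapped for every member. In RNA from whole tissue, fewer cells of a type and less RNA per cell cannot be told apart.

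**Figure D1:**
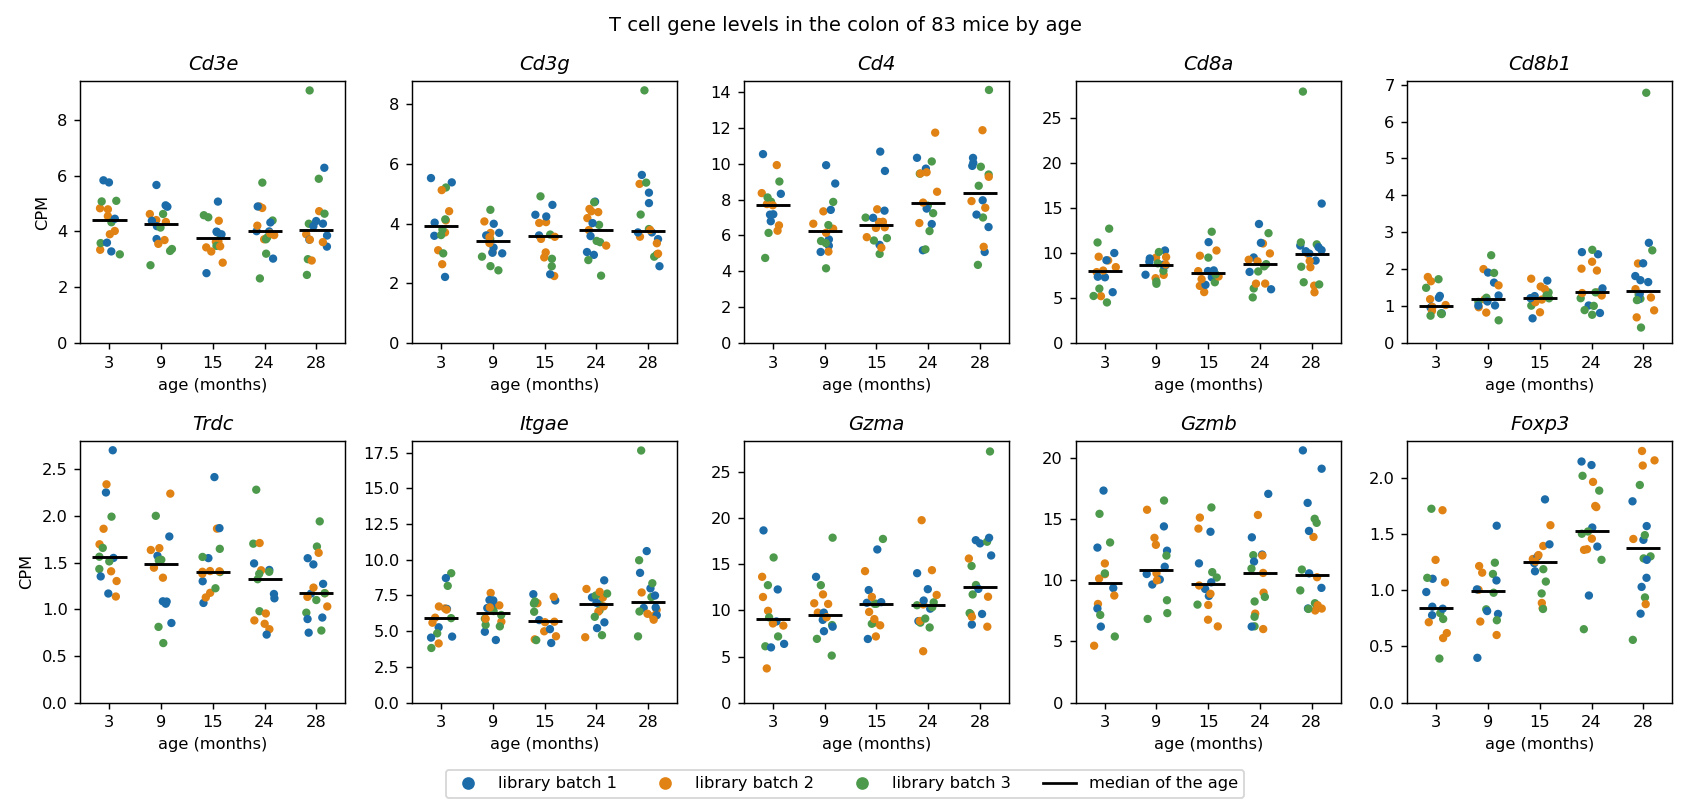
CPM (counts scaled to library size, y axis) of each of the 10 genes in 83 mice by age in months (x axis), 1 point per mouse coloured by library batch, with a bar at the median of each age. The medians of Foxp3 move from 0.844 at 3 months to 1.37 at 28 months and those of Trdc from 1.56 to 1.17, and a single 28-month mouse lies far above the others for Cd8a, Cd8b1 and Itgae.

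The invariant chains CD3 epsilon and gamma, which every T cell needs to bring its receptor to the surface, showed no called difference between 3 and 28 months. Cd3e ranged from 3.18 to 5.83 CPM (counts scaled to the normalised library size) at 3 months, with a median of 4.39, and from 2.44 to 9.05 at 28 months, with a median of 4.04. Only 5 of the 18 oldest mice lay above the median of the youngest. The log2 fold change was 0.00 with a 95% interval from -0.22 to 0.21 (edgeR, adjusted p = 0.987). Cd3g had medians of 3.92 and 3.74 CPM, a log2 fold change of 0.08 and an interval from -0.15 to 0.32 (edgeR, adjusted p = 0.608). At 28 against 15 months, where 6 members were called, Cd3g was among them, with a log2 fold change of 0.26 (SE 0.12, edgeR, adjusted p = 0.0826), from a median of 3.58 CPM at 15 months. That call was lost in 12 of the 34 fits that left out a single mouse, among them the one without the 28-month mouse with replicate number 1.

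Foxp3, the factor that defines regulatory T cells, rose. It spanned 0.391 to 1.72 CPM at 3 months with a median of 0.844, and 0.558 to 2.24 at 28 months with a median of 1.37. The medians between these ages were 0.990 at 9 months, 1.25 at 15 months and 1.52 at 24 months, so the highest median was that of the 24-month mice. The groups at 3 and 28 months overlapped, but 16 of the 18 oldest mice were above the median of the youngest. Relative to 3 months, the log2 fold change was 0.59 at 28 months (SE 0.15, edgeR, adjusted p = 0.00129) and 0.73 at 24 months (SE 0.16, edgeR, adjusted p = 0.000217). Within the 3 library batches the log2 difference between 28 and 3 months was 0.51, 0.86 and 0.44, and that between 24 and 3 months 0.83, 0.72 and 0.66. From 15 to 24 months it was 0.38 (SE 0.15), with an adjusted p of 0.107 in edgeR, just outside the threshold.

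Cd4, the coreceptor of helper and regulatory T cells that some gut macrophages also carry, had its lowest median at 9 months. It ranged from 4.74 to 10.5 CPM at 3 months (median 7.72), from 4.16 to 9.92 at 9 months (median 6.26) and from 4.36 to 14.1 at 28 months (median 8.36). The ages overlapped widely. The log2 fold change between 28 and 3 months was 0.15, with a 95% interval from -0.08 to 0.38 (edgeR, adjusted p = 0.288). Against 9 months, Cd4 was higher at 24 months by 0.34 (SE 0.12, edgeR, adjusted p = 0.0459) and at 28 months by 0.39 (SE 0.11, edgeR, adjusted p = 0.00564), and against 15 months it was higher at 28 months by 0.33 (SE 0.12, edgeR, adjusted p = 0.0189). At 28 against 15 months 3 of 5 macrophage markers were called higher and 5 of 6 B cell markers lower, beside 20.1% higher and 22.1% lower over all genes. Their part in the differences of Cd4 was not tested.

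The CD8 chains were called higher at 28 months, but a single animal decided the call of Cd8a and much of the size of the difference in Cd8b1. CD8 alpha is made both by conventional killer T cells, as a pair with CD8 beta, and by many intraepithelial lymphocytes, as a pair with itself. Cd8a ranged from 4.51 to 12.7 CPM at 3 months (median 7.97) and from 5.64 to 28.0 at 28 months (median 9.94). Cd8b1 ranged from 0.739 to 1.79 CPM at 3 months (median 1.01) and from 0.418 to 6.78 at 28 months (median 1.40). Between 3 and 28 months Cd8a was 1.29-fold higher (log2 0.37, SE 0.14, edgeR, adjusted p = 0.0236), with 14 of 18 old mice above the young median. Cd8b1 was 1.58-fold higher (log2 0.66, SE 0.21, edgeR, adjusted p = 0.007), with 15 of 18 above, although 2 of the old mice lay under every young one. Within the batches, the log2 differences were 0.47, -0.03 and 0.60 for Cd8a and 0.78, 0.01 and 1.02 for Cd8b1, so in batch 2 both were close to 0.

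The highest values of Cd3e, Cd3g, Cd8a, Cd8b1, Itgae and Gzma belonged to the 28-month mouse with replicate number 1, from batch 3. Its 10 members summed to 124.9 CPM, and the next highest of all mice reached 90.3. Its 10 tested genes of the cytotoxic list given further on summed to 63.9 CPM, against 20.9 to 43.5 in the other 28-month mice, while its B cell markers, at 6.83 CPM, were below the 7.61 to 30.4 of those mice. Without this mouse, 5 members were called between 28 and 3 months, beside 48.6% of all genes. Cd8a then had a log2 fold change of 0.23 (edgeR, adjusted p = 0.118) and was no longer called, and Cd8b1 one of 0.39 (edgeR, adjusted p = 0.0667). Itgae kept 0.27 (edgeR, adjusted p = 0.0272), Gzma 0.38 (edgeR, adjusted p = 0.0425), Foxp3 0.60 (edgeR, adjusted p = 0.00125) and Trdc -0.52 (edgeR, adjusted p = 0.0017).

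Trdc, the constant segment of the delta chain that marks gamma delta T cells, was the 1 member that fell. It ranged from 1.14 to 2.71 CPM at 3 months (median 1.56) and from 0.749 to 1.94 at 28 months (median 1.17), with medians of 1.49, 1.40 and 1.32 at the ages between. The groups overlapped, but 15 of 18 old mice lay under the young median, 8 of them under every young mouse. The level was 0.719-fold at 28 months (log2 -0.48, SE 0.14, edgeR, adjusted p = 0.00339) and 0.753-fold at 24 months (log2 -0.41, SE 0.14, edgeR, adjusted p = 0.0213). Within batches the log2 difference between 28 and 3 months was -0.65, -0.41 and -0.36.

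Itgae, the alpha chain of the integrin that anchors lymphocytes to the epithelium, was higher at 28 months than at 3, 9 or 15 months. It ranged from 3.82 to 9.06 CPM at 3 months (median 5.93) and from 4.63 to 17.7 at 28 months (median 7.02), with 16 of 18 old mice above the young median and 4 above every young mouse. It was 1.29-fold higher at 28 months (log2 0.37, SE 0.11, edgeR, adjusted p = 0.00644). Within batches the log2 difference was 0.39, 0.12 and 0.52. At 24 months the log2 difference from 3 months was 0.14, with an interval from -0.09 to 0.37 (edgeR, adjusted p = 0.384).

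**Figure D2:**
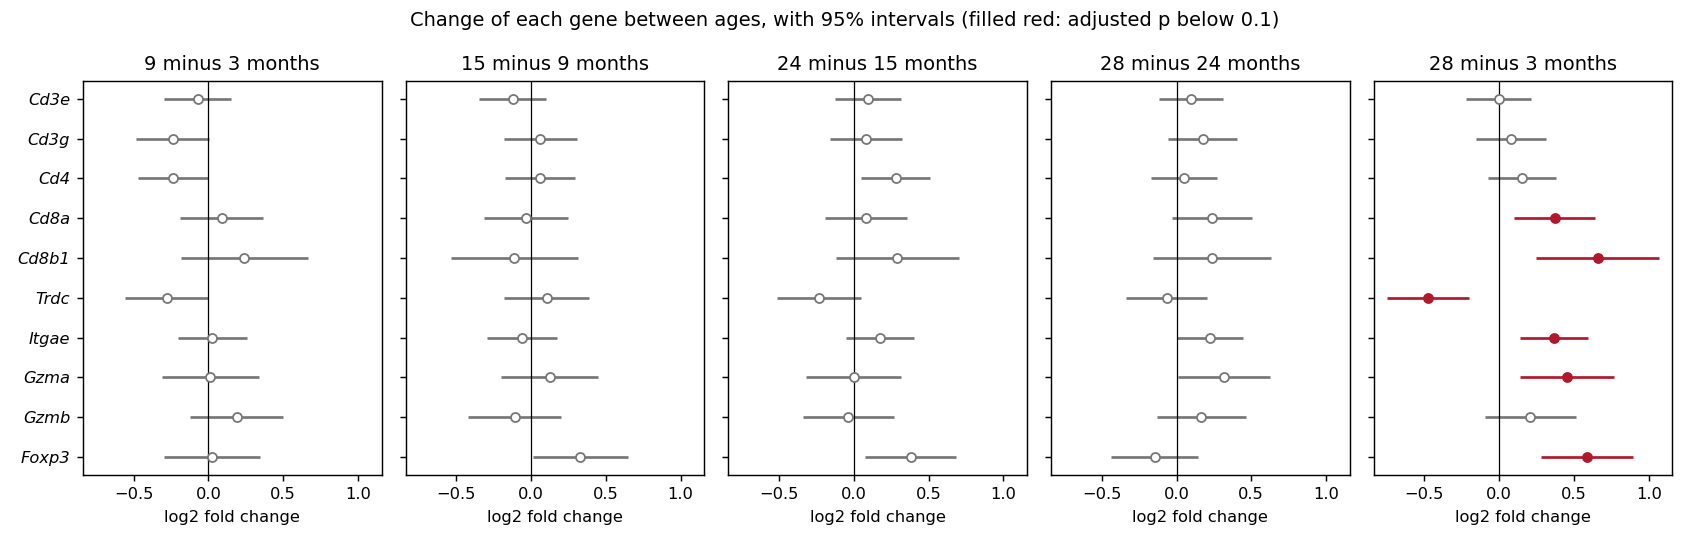
Log2 fold change (x axis) of each of the 10 genes (y axis) between successive ages and, in the last panel, between 28 and 3 months, with 95% intervals. Filled red points have an adjusted p below 0.1 over all tested genes. None of the successive steps has one, and the last panel has 6, with Trdc on the negative side.

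Of the granzymes, granzyme A rose and granzyme B did not pass the threshold. Granzyme A is a trypsin-like protease, and granzyme B cuts after aspartate and starts caspase-dependent death. Gzma ranged from 3.71 to 18.7 CPM at 3 months (median 9.03) and from 8.24 to 27.3 at 28 months (median 12.6), a 1.37-fold difference (log2 0.45, SE 0.16, edgeR, adjusted p = 0.0166), with 16 of 18 old mice above the young median. Within batches the log2 difference was 0.44, 0.22 and 0.62. Gzmb ranged from 4.64 to 17.3 CPM at 3 months (median 9.74) and from 7.52 to 20.6 at 28 months (median 10.4), a log2 difference of 0.21 with an interval from -0.09 to 0.51 (edgeR, adjusted p = 0.273). The 2 genes nevertheless moved together from mouse to mouse. Of the 18324 other tested genes, Gzmb was the most like Gzma (Pearson's r = 0.865 over 83 mice, log2 CPM after removal of the mean of each age in each batch), and Gzma the most like Gzmb.

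Because these genes covaried most closely among the members, their promoters are printed, 250 bases before and 50 after the transcript start given by RefSeq on GRCm38.p6, both on the minus strand. RefSeq windows were found for 6 of the 10 members. Capitals mark the letters TGTGGT on either strand, the core bound by RUNX factors, which occur in 16.8% of all 32851 windows of this length. The Gzma window (chr13:113100932-113101231) has 1 such match, on the opposite strand, whose first letter lies 50 bases before the start. The Gzmb window (chr14:56262285-56262584) has 2 on the printed strand, at 93 and 34 bases before a start that lies 74 bases upstream of the one in GENCODE.
Gzma promoter: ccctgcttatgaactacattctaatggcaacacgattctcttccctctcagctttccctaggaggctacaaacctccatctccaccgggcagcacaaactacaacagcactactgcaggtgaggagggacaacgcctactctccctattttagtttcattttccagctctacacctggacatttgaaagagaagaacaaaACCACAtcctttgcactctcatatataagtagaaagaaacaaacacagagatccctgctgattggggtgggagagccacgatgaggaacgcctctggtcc
Gzmb promoter: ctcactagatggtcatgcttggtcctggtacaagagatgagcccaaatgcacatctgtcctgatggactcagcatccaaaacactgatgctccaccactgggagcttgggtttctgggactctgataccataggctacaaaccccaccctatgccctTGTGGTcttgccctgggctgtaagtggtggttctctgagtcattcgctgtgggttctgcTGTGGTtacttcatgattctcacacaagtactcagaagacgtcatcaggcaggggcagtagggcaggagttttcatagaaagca
The other motifs of 8 searched on both strands were an ETS core (AGGAAG, in 35.4% of all windows), an E box (CAGGTG, in 20.2%), a TATA box (TATAAA, in 13.6%), a GATA core (AGATAA, in 11.2%), a CCAAT box (CCAAT, in 37.4%), an AP-1 site (TGAGTCA, in 5.2%) and a cyclic AMP element (TGACGTCA, in 1.79%). Neither granzyme window held the ETS, TATA, GATA or cyclic AMP letters. Of this pair of windows, those of the E box and CCAAT box were found in Gzma and those of the AP-1 site in Gzmb. Such matches describe letters and show no binding.

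No member was called between successive ages by edgeR. The background share of all tested genes was 8.51% for the step from 3 to 9 months, 0.426% for 9 to 15, 13.4% for 15 to 24 and 11.5% for 24 to 28. At an unadjusted p below 0.05 there were 2, 1, 2 and 2 members in these steps, and DESeq2 called 0, 0, 2 and 0. The 2 were Cd4 (log2 0.28, DESeq2, adjusted p = 0.0973) and Foxp3 (log2 0.38, DESeq2, adjusted p = 0.0817) between 15 and 24 months. Of all genes DESeq2 called 1667 of 20908, 117 of 20908, 2665 of 19446 and 2271 of 18715 in the order of the steps. No member was called between 3 and 15 months either, where 7.69% of all genes were. There 1 member had an unadjusted p below 0.05, and DESeq2 called 0 members and 1621 of 23836 genes. A nonlinear course over the 5 ages, tested as the terms beyond a straight line, was called by edgeR for 0 members and 16.1% of all genes, with 1 member, Cd4, at an unadjusted p below 0.05 and 1 called by DESeq2. DESeq2 called 3282 of 20906 genes for such a course.

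The spans that skipped an age and ended at 24 or 28 months held calls. The 24-month mice differed from the 3-month mice in 2 members, with Foxp3 higher and Trdc lower (34.3% of all genes), and from the 9-month mice also in 2, with Cd4 and Foxp3 higher (15.4%). The 28-month mice differed from the 9-month mice in 5, with Cd3g, Cd4, Gzma, Itgae and Foxp3 higher (39.8%), and in 4 without the 28-month mouse with replicate number 1 (39.1%), when Cd3g was not called. Between 15 and 28 months 6 were called, against 42.2% of all genes. Cd3g, Cd4, Cd8a, Cd8b1 and Itgae were higher at 28 months (20.1% of all genes were higher) and Trdc was lower (22.1% were lower). Of these, Cd3g, Cd8a and Cd8b1 were no longer called without the 28-month mouse with replicate number 1, with log2 fold changes of 0.18, 0.17 and 0.27 in place of 0.26, 0.32 and 0.53, and adjusted p of 0.226, 0.267 and 0.24 in edgeR. The fall of Trdc in this span had an adjusted p of 0.0841 and was not called in 15 of 34 fits with a mouse left out. For any difference among the 5 ages, 6 members were called, Cd4, Cd8b1, Trdc, Gzma, Itgae and Foxp3, among 54.7% of all genes. Cd8b1 lost this call without replicate 1 of the 28-month mice, and Gzma without either replicate 1 or replicate 11. These comparisons share mice and are not independent of each other.

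Ratios of read counts within a mouse, which do not depend on library size, described how the members' transcripts changed relative to each other. Other cells that make a member's transcript, such as gut macrophages for Cd4, enter these ratios, and their part was not tested. Of 8 ratios compared in 2 spans each, 5 differed between 28 and 3 months and 1 between 24 and 15 months (two-sided permutation test of the mean log2 ratio with 100000 resamples, Benjamini-Hochberg over the 16 tests, threshold 0.1). Between 28 and 3 months the smallest standard error of the 8 belonged to Itgae relative to Cd3e. The log2 ratio averaged 0.46 ± 0.20 (SD) in the 16 youngest mice and 0.85 ± 0.14 (SD) in the 18 oldest, which differ by 0.39 (SE 0.06, permutation p = 1e-05, the smallest these resamples can give, adjusted 0.00016). All 18 old mice lay above the young median and 10 above every young mouse. Within batches the difference was 0.49, 0.30 and 0.36, and the means at 9, 15 and 24 months were 0.58, 0.63 and 0.73.

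Cd8a relative to Cd3e was higher by 0.38 (SE 0.10, adjusted permutation p = 0.00432) at 28 than at 3 months, in 17 of 18 mice above the young median, with batch differences of 0.55, 0.13 and 0.43. Foxp3 relative to Cd4 was higher by 0.45 (SE 0.12, adjusted permutation p = 0.00432), in 18 of 18 mice above the young median, with batch differences of 0.46, 0.78 and 0.19. Its mean log2 ratio was -3.06, -2.78, -2.46, -2.39 and -2.60 in the order of the ages, so the 28-month mean lay under that of the 24- and 15-month mice. Trdc relative to Cd3e was lower by 0.43 (SE 0.14, adjusted permutation p = 0.0174), a difference of -0.54, -0.20 and -0.51 within batches, and 9 of 18 old mice fell under every young one. Its means in the order of the ages were -1.38, -1.62, -1.35, -1.70 and -1.81, so the 15-month mean was close to the 3-month mean. It was also lower at 24 than at 15 months, by 0.35 (SE 0.13, adjusted permutation p = 0.0444), where the batches gave -0.53, -0.65 and 0.15 and so did not share a direction. Gzmb relative to Gzma was lower by 0.26 (SE 0.09, adjusted permutation p = 0.0174), with -0.12, -0.20 and -0.49 within batches. Its means in the order of the ages were 0.02, 0.19, -0.07, -0.11 and -0.24, so the 9-month mean lay above the 3-month mean.

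The other 3 ratios were not called between 28 and 3 months. Cd8b1 to Cd8a differed by 0.10 (SE 0.14, adjusted permutation p = 0.54), Cd4 to Cd8a by -0.23 (SE 0.17, adjusted permutation p = 0.34) and Gzma to Cd8a by 0.16 (SE 0.12, adjusted permutation p = 0.34). None of these p-values shows that the ratios are alike. On leaving out single mice these differences ranged from 0.05 (without 3-month replicate 7) to 0.18 (without 28-month replicate 12) for Cd8b1 to Cd8a, from -0.29 to -0.16 for Cd4 to Cd8a and from 0.11 to 0.20 for Gzma to Cd8a. The mouse with the highest member levels entered all of these values, and the lowest and highest differences on leaving out any single mouse kept the call of each of the 16 tests.

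**Figure D3:**
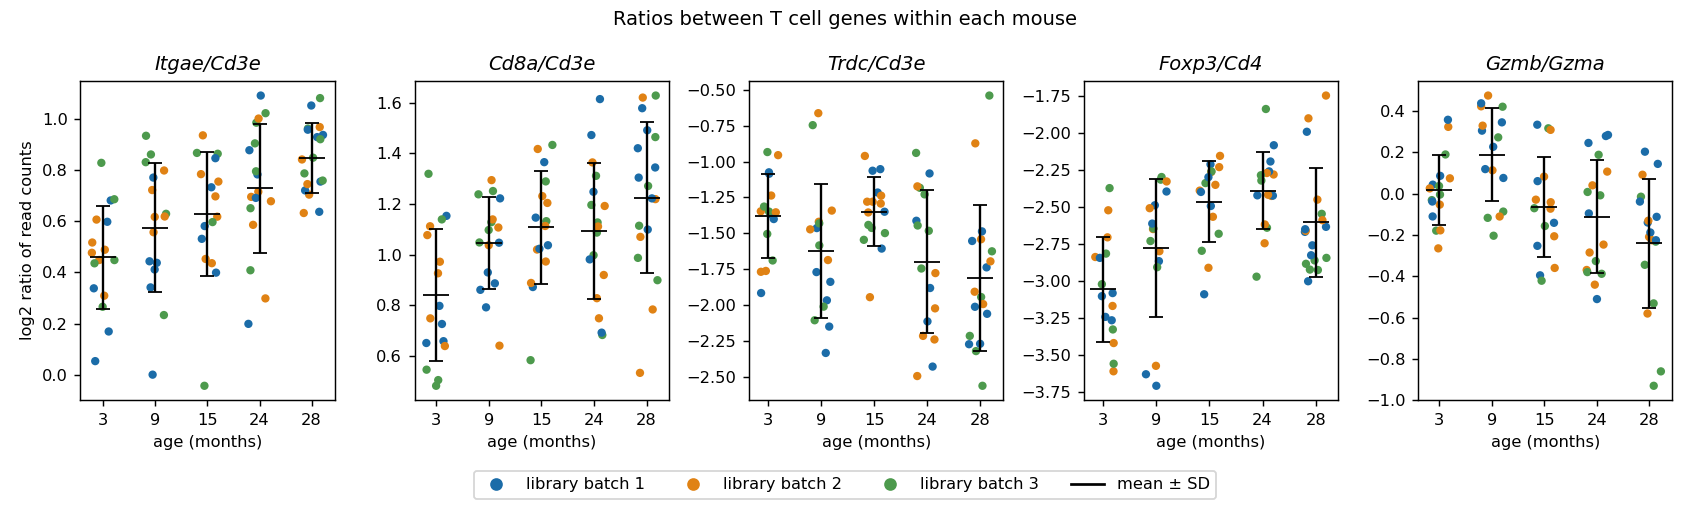
Log2 ratio of the read counts of 2 genes in the same mouse (y axis) by age in months (x axis) for the 5 ratios that differed between 28 and 3 months, 1 point per mouse coloured by library batch, with mean ± SD. The mean of Itgae to Cd3e lies at 0.46 at 3 months and 0.85 at 28 months, and that of Trdc to Cd3e at -1.38 and -1.81.

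Related genes in lists drawn up beside the members were compared in the same 28-against-3-month fit, in which 23.4% of all tested genes were called higher and 25.9% lower. The counts that follow are read against those shares. Of 8 further genes of the receptor and CD3 complex, 1 rose (Cd247, the CD3 zeta chain, log2 0.32, SE 0.14, edgeR, adjusted p = 0.0659) and 1 fell (Trgc4, a gamma chain constant segment, log2 -0.35, SE 0.13, edgeR, adjusted p = 0.0202). The alpha chain constant segment Trac had a log2 difference of 0.07 and an interval from -0.17 to 0.31. The list's median was 0.02 and that of all tested genes -0.01. Trbc1 and Trbc2, and the gamma constant segments, have near-identical copies, and counts of uniquely mapped reads for them are uncertain. Without the 28-month mouse with replicate number 1, Cd247 was no longer called.

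Of 15 genes of T cell signalling and identity, 9 rose and 2 fell, with a median of 0.29, beside 23.4% higher and 25.9% lower over all tested genes. The 3 largest rises were Cd6 (log2 0.78), an inhibitory scavenger receptor, Ubash3a (0.73), a phosphatase-like brake on receptor signalling, and Themis (0.62), an adaptor needed for thymic selection. The costimulatory receptor Cd27 (log2 -0.50) and the T lineage factor Bcl11b (-0.20) fell. Without the same mouse there were 7 rises and 3 falls.

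Of 12 genes of the cytotoxic list 10 were tested, 8 rose and 1 fell, with a median of 0.43. Eomes, a transcription factor of killer and memory cells, rose by 1.21 on the log2 scale (SE 0.15, edgeR, adjusted p = 3.66e-10), Gzmk by 0.80 (SE 0.21, edgeR, adjusted p = 0.00141) and Prf1, the pore-forming perforin, by 0.77 (SE 0.15, edgeR, adjusted p = 1.72e-05). Klrd1, the CD94 chain of NKG2 receptors, fell by 0.86 (SE 0.11, edgeR, adjusted p = 1.15e-09). Without the mouse with replicate number 1, 6 rose and 1 fell. Gzmc and Ifng did not pass the filter on low counts.

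Of 14 genes of intraepithelial life and tissue residency, 3 rose and 1 fell, with a median of 0.07, so a smaller share was called than the 49.3% of all tested genes. Zfp683, the residency factor Hobit, rose by 0.85 (SE 0.19, edgeR, adjusted p = 0.00012), the chemokine receptor Cxcr6 by 0.67 and the junctional adhesion molecule Jaml by 0.31. Cd160, a receptor of CD8 and intraepithelial lymphocytes, fell by 0.64 (SE 0.17, edgeR, adjusted p = 0.00116). Itgb7, which encodes the partner chain of CD103, had a log2 difference of 0.15 with an interval from -0.05 to 0.36.

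Among 12 genes of regulatory T cells, 8 rose and 1 fell, with a median of 0.24. Il2ra, the alpha chain of the interleukin-2 receptor, rose by 0.89 on the log2 scale (SE 0.11, edgeR, adjusted p = 6.71e-10), Ctla4, an inhibitory receptor, by 0.48, and Lrrc32, which holds latent TGF-beta on the cell surface, by 0.31. Ikzf2, which encodes Helios, fell by 0.24 (edgeR, adjusted p = 0.0818). Over all mice the median was 18.4 CPM for Ikzf2, 13.1 for Lrrc32, 19.0 for Entpd1 and 12.6 for Il1rl1, against 1.21 for Foxp3. Which cells made the transcripts of this list was not tested. The counts were the same without the 28-month mouse with replicate number 1.

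Of 5 genes of inhibition and exhaustion, the factor Tox among them, 4 rose, among them Pdcd1, which encodes PD-1 (log2 0.48), Tox (0.30) and Lag3 (0.27), and Btla fell (-0.80). Btla is also made by B cells. Over all mice the median was 29.98 CPM for Tox, 2.48 for Lag3 and 0.3671 for Pdcd1, against 3.999 for Cd3e. The cell source of these transcripts was not tested. Of 14 ligands and supporters in the epithelium, 7 rose and 3 fell, with the largest rises in the butyrophilin-like genes Btnl9 (0.33) and Btnl2 (0.22) and the lipid-presenting Cd1d1 (0.21). The falls were Il18 (-0.43), the nonclassical class I gene H2-T3 (-0.21) and Cdh1 (-0.17), which encodes E-cadherin, the ligand of CD103. Without the 28-month mouse with replicate number 1, 6 rose and 3 fell.

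**Figure D4:**
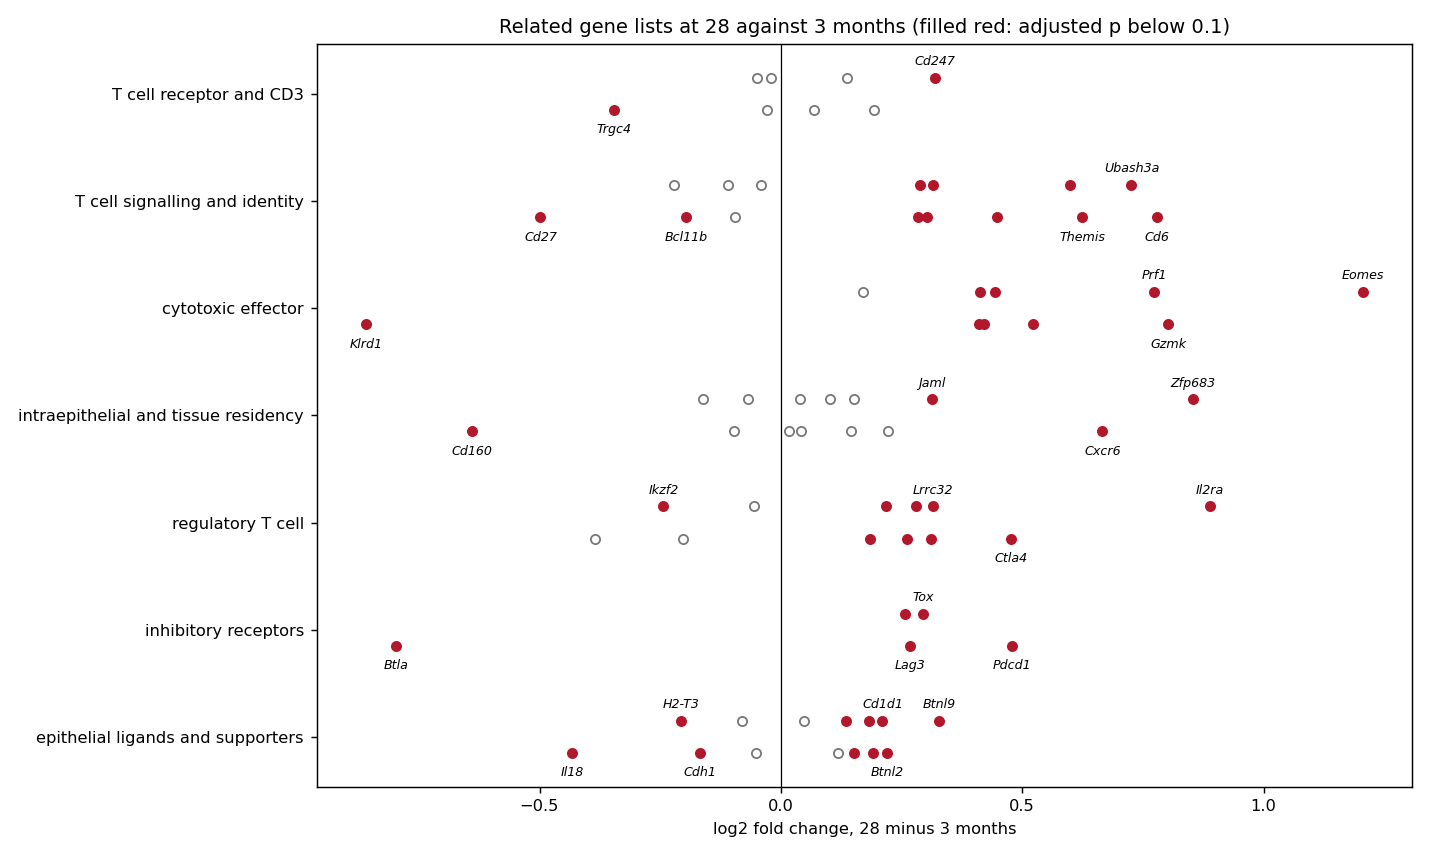
Log2 fold change between 28 and 3 months (x axis) of the tested genes of 7 related lists (y axis), 1 point per gene, with up to 3 called genes named per list and direction. Filled red points have an adjusted p below 0.1. In the cytotoxic list 8 of 10 tested genes lie filled on the positive side, while most receptor and CD3 genes lie unfilled near 0.

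Variable segments of gamma delta receptors, a list chosen after the other values were seen, were sparse. Of 12 segments listed, 4 passed the filter, and of these 1 was called lower and 0 higher, beside 25.9% lower over all tested genes. Tcrg-V1 fell by 0.77 on the log2 scale (SE 0.23, edgeR, adjusted p = 0.00467), while Tcrg-V7, used by intestinal intraepithelial cells, had a difference of -0.01 with an interval from -0.49 to 0.47.

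Markers of other cells moved over the same span. Of 6 B cell markers 5 fell, Cr2 the most (log2 -3.06), followed by Pax5 (-1.97). Their summed level ranged from 7.71 to 97.1 CPM at 3 months (median 33.4) and from 6.83 to 30.4 at 28 months (median 17.7). Of 5 macrophage markers 4 rose (Cd68 by 0.45 and Csf1r by 0.45), with a summed level of 97.5 to 153.4 CPM at 3 months and 92.2 to 228.1 at 28 months. Of 5 mast cell markers 4 rose (Mcpt4 by 1.54), summing to 125.7 to 187.9 and 148.3 to 205.0 CPM. That sum is mostly Kit, the marker that was not called, which interstitial pacemaker cells of the gut wall also make (median 154.7 CPM over all mice, against 0.157 to 2.96 for the other 4), so it is no measure of mast cells. Of 3 tested neutrophil markers 2 rose (S100a9 by 1.47), the list summing to 2.21 to 4.92 and 2.16 to 6.35 CPM, mostly from the uncalled Csf3r (median 2.72 CPM). Of 6 epithelial markers 2 fell (Cdh1 by 0.17 and Epcam by 0.09), summing to 8291 to 10460 and 7583 to 10080 CPM. Cxcl13, a chemokine of B cell follicles, rose by 1.15 as 1 of 2 tested genes of the lymph node stroma list, of whose untested markers Glycam1 was at 0 in 30 mice and Ccl19 in 60. The lowest adjusted p of edgeR was 0.151 among 5 plasma cell markers (Derl3, log2 0.29), 0.432 among 5 dendritic cell markers (Zbtb46, log2 -0.07), 0.107 among 3 tested natural killer and innate lymphoid markers (Klrb1c, log2 -0.28), 0.196 among 5 smooth muscle markers (Des, log2 0.28) and 0.146 among 4 fat markers (Cfd, log2 1.13). Il22 was at 0 in 46 mice. Without the 28-month mouse with replicate number 1, 1 plasma cell gene was called higher.

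With the B cell markers' mean as a covariate, 7 members were called between 28 and 3 months, beside 49.4% of all genes in the same fit. The 7th was Cd4, whose log2 fold change moved to 0.31 (edgeR, adjusted p = 0.0128), and Foxp3 stood at 0.82 (edgeR, adjusted p = 3.68e-06). The part of the macrophage, mast cell, neutrophil and lymph node stroma markers in the members' differences was not tested. With epithelial and smooth muscle marker means as covariates, 6 members were called, beside 46.7% of all genes.

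The members' variation from mouse to mouse was also set beside that of the B cell markers, gene by gene, and the differences between the members' correlations were not tested. After removal of the mean of each age in each batch, 10 correlations with the mean of the 6 B cell markers were computed over 83 mice (two-sided permutation tests, 100000 resamples, Benjamini-Hochberg over the 10). Cd4 had the highest Pearson's r, 0.53 (adjusted permutation p = 5e-05), with a Spearman's rho of 0.55 (adjusted permutation p = 5e-05), and r = 0.51 without the 2 mice farthest from the median of the B cell mean. Its r within the batches was 0.59, 0.41 and 0.59. Foxp3 had r = 0.49 (adjusted permutation p = 5e-05), rho = 0.48 (adjusted permutation p = 5e-05), r = 0.47 without those 2 mice and 0.57, 0.35 and 0.58 within batches. The raw p of both genes, 1e-05, was the smallest these resamples can give.

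Cd3g followed with r = 0.45 (adjusted permutation p = 1e-04), rho = 0.47 (adjusted permutation p = 1e-04), 0.42 without the 2 mice and 0.57, 0.43 and 0.35 within batches. Cd3e had r = 0.36 (adjusted permutation p = 0.00198), rho = 0.43 (adjusted permutation p = 0.00015), 0.34 without the 2 mice and 0.43, 0.40 and 0.32 within batches. Lower values were found for Itgae (r = 0.25, adjusted permutation p = 0.0424, rho = 0.29), Cd8b1 (r = 0.23, adjusted permutation p = 0.0534, rho = 0.30) and Cd8a (r = 0.23, adjusted permutation p = 0.0534, rho = 0.26). Within batches r was 0.27, 0.30 and 0.22 for Itgae, 0.50, 0.23 and 0.07 for Cd8b1 and 0.35, 0.17 and 0.22 for Cd8a. Gzma (r = 0.20, rho = 0.16) and Gzmb (r = 0.20, rho = 0.18) passed the threshold of 0.1 by r, with adjusted permutation p of 0.0808 and 0.0862, but not by rho, at 0.168 and 0.136. Their r within batches was 0.08, 0.07 and 0.50 for Gzma and 0.07, 0.07 and 0.50 for Gzmb, so r was close to 0 in batches 1 and 2. Trdc had r = 0.07 (adjusted permutation p = 0.545) and rho = 0.06, with 0.24, -0.17 and 0.07 within batches.

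**Figure D5:**
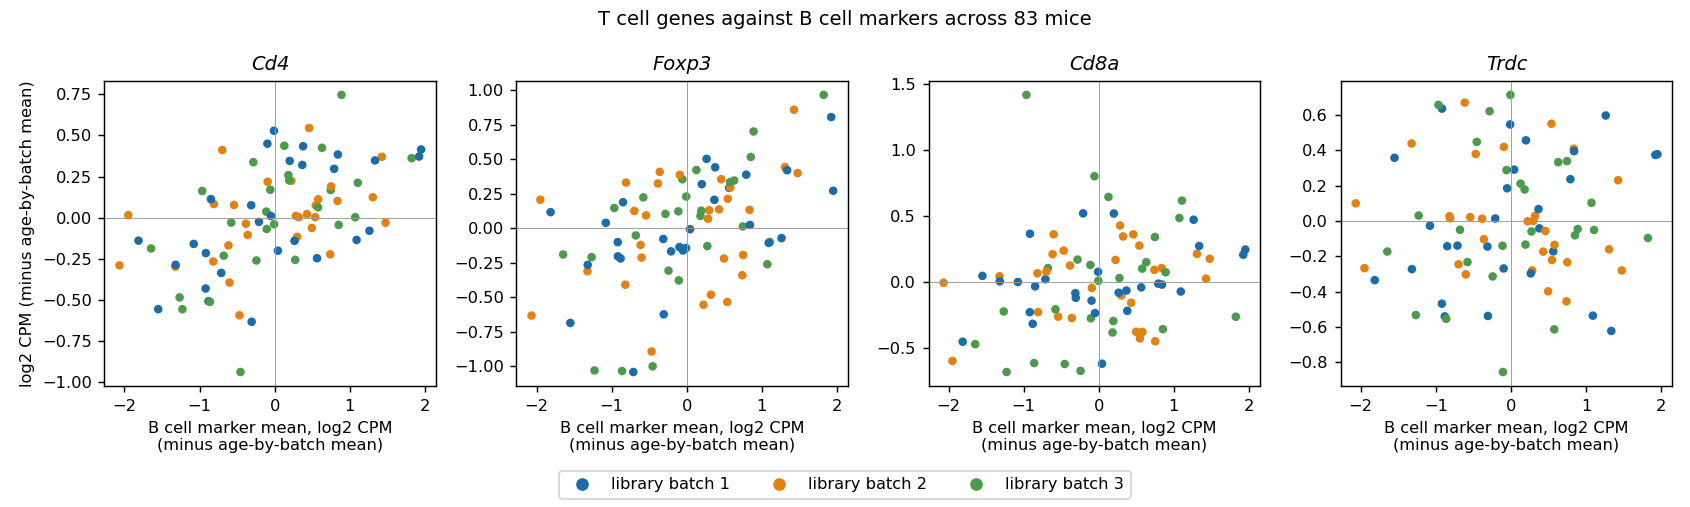
Log2 CPM of Cd4, Foxp3, Cd8a and Trdc (y axes) against the mean log2 CPM of 6 B cell markers (x axis) in 83 mice, each minus the mean of its age and batch and coloured by library batch. The points rise for Cd4 (r = 0.53) and Foxp3 (r = 0.49) and show little slope for Trdc (r = 0.07).

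By the same residual log2 CPM, the genes most like a member over the 83 mice were ranked among the 18324 other tested genes. For Cd3e they were the adaptor Lat (r = 0.836), the kinase Lck (0.83), Nkg7 of cytotoxic granules (0.808), Trac (0.807) and the protease Ctsw (0.796). For Gzma they were Gzmb, the chemokine Ccl5 (0.749), the guanylate-binding Gbp8 (0.744), Ctsw (0.733) and Cd8a (0.733). For Foxp3 they were Fmnl1 (0.785), Ets1 (0.743), the cytokine receptor chain Il2rg (0.739), Bin2 (0.738) and Il16 (0.733). The values describe shared variation between libraries and are given without a test. Among the members not chosen for this ranking in advance, and named after their values were seen, Trdc had no close match, with Cd7 highest at 0.572, and Cd4 was nearest to Laptm5 (0.832), Itgal (0.831), Fmnl1 (0.821), Itgb2 (0.814) and Mpeg1 (0.812), genes of leukocytes in general or, for Mpeg1, mainly of macrophages.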

How the data were processed

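Bulk RNA-seq of proximal colon from 83 mice was analysed by age. The authors prepared stranded, polyadenylated RNA libraries, trimmed reads with cutadapt 2.8, aligned them to GRCm38 with HISAT2 2.1.0, kept uniquely mapped reads with SAMtools 1.9 and counted read pairs by strand with featureCounts (Subread 2.0.1). The deposited counts are whole numbers per gene and mouse, not normalized.

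Here genes were filtered with filterByExpr by age, normalized with TMM and fitted with edgeR 4.0.16 in R 4.3.3 (quasi-likelihood, age and library batch, all 83 mice), with Benjamini-Hochberg adjustment over 18325 genes. The threshold of 0.1 follows the study. CPM and TPM were computed from the counts, with merged exon lengths from GENCODE on GRCm38, which 37652 of 37764 genes had. Ratios used a prior count of 0.5 per gene and were tested, like the correlations (prior count 2), by permutation in Python 3.11.15 with numpy 2.4.6 and scipy 1.17.1. No pair of mice of an age was alike enough to be a library deposited again (649 pairs).

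The members and lists were chosen with earlier results of these data known. Named genes were all members, at most the 3 largest called changes per direction and list between 28 and 3 months, and the 5 genes most like each of Cd3e, Gzma and Foxp3. Trac, Itgb7, Tcrg-V7, Il22, Glycam1, Ccl19 and the lowest-p markers of uncalled lists were named after their values were seen, and the gamma delta variable segments were added then too. On counts simulated for 18245 genes, 81 of 100 genes changed 1.5-fold and 98 of 100 changed 2-fold at 28 months were recovered against 3 months, with 15 false calls. The simulation gave each gene the trended dispersion, no batch differences and no change beyond those genes. In the data 9029 of 18325 genes were called in this span, so these rates need not hold there. Alternatives were DESeq2 1.42.0, its size factors, other filters, covariates, thresholds and samples. Some results for single genes are not reported here. Replicate numbers in the labels served as names, and as a block in 1 alternative. Leave-one-out fits kept the trended dispersion of the full fit.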

Additional observations from a re-analysis of the deposited data

How the results depend on the processing

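Of 440 alternative values for the 10 genes in 4 spans (28 against 3, 28 against 15, 24 against 15 and 24 against 3 months), 407 kept their call, and 0 called values reversed. All 64 for the ratios and all 30 for Pearson's r with the B cell markers kept their call. The uncalled difference of Cd8a to Cd3e between 24 and 15 months ranged from -0.05 to 0.01 without single mice. Spearman's rho, by which Gzma and Gzmb did not pass, was not among the 30. Between 28 and 3 months 5 to 6 members were called on leaving out each mouse in turn. Between 28 and 15 months the 6 calls fell to 3 at an adjusted p below 0.05, with no filter on low counts (which tests more genes), with the replicate block, with only the 2 ages fitted and without the 28-month mouse with replicate number 1, a setting added after the data were seen; leaving out each mouse gave 3 to 7. They rose to 8 with the B cell mean as a covariate and to 7 without the batch term or with the epithelial and smooth muscle means. Of all genes, 7730 of 18325 were called here in the main fit. The falls went with 6402 of 18325 at 0.05, 7358 of 37764 unfiltered and 7154 of 18325 with the replicate block. They went with 7139 of 17552 with only the 2 ages fitted and 7504 of 18312 without that mouse. The rises went with 7747 of 18325 with the B cell mean, 7660 without the batch term and 8518 with the epithelial and smooth muscle means. The 6 calls for any age ranged from 4 (replicate block, or without that mouse) to 8 (no batch term, B cell mean, or at least 10 counts in every mouse), and the 5 between 28 and 9 months from 4 (without that mouse) to 7 (the same settings as the 8). For any age, 10016 of 18325 genes were called in the main fit, 9469 with the replicate block and 9884 of 18312 without that mouse. The settings with 8 called 9808 and 9923 of 18325 and 8948 of 15151, in that order. Between 28 and 9 months the main fit called 7302 of 18325 genes and the fit without that mouse 7153 of 18312. The settings with 7 called 7109 and 7400 of 18325 and 6505 of 15151, in the same order. Between 24 and 15 months the 0 calls became 1 with at least 10 counts in every mouse, and 2 with the replicate block, with only the 2 ages fitted and with DESeq2, and 0 to 2 without single mice. Genes called in this span were 2462 of 18325 in the main fit and 2436 of 15151 with at least 10 counts in every mouse. They were 2102 of 18325 with the replicate block, 3301 of 17506 with only the 2 ages fitted and 2665 of 19446 with DESeq2. With the B cell mean as a covariate there was 1 call between 28 and 24 months and 1 between 15 and 3 months, against 0, and without the covariate 0 to 1 in each on leaving out single mice. Of 18325 genes, 1654 and 1515 were called in these spans with the covariate, against 2111 and 1409 in the main fit. Departure from a straight line had 1 call with the replicate block, 2 with either the B cell mean or the epithelial and smooth muscle means as covariates, 1 with DESeq2 and 0 to 1 without single mice, against 0. Genes called for it were 2942 of 18325 in the main fit, 2598 with the replicate block and 3282 of 20906 with DESeq2. They were 2801 of 18325 with the B cell mean and 4647 with the epithelial and smooth muscle means. Between 24 and 9 months, 2 calls became 1 with epithelial and smooth muscle means, beside 2813 and 2614 of 18325 genes. The causes were not tested beyond what the settings change. The replicate block pairs mice by number alone: of 161 same-numbered pairs, the median correlation of deviations from the age means was 0.01 and 57 exceeded 0.1, and 20 of 322 comparisons had the same number as best match. Foxp3 and Cd8b1, at 11 and 12 read pairs in the lowest mouse, are the members that depth limits most.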
